A study of Caenorhabditis elegans with 11 samples.

Results

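ATP-binding cassette (ABC) transporters of Caenorhabditis elegans were followed across worms exposed to high oxygen, with and without RNA interference (RNAi) against skn-1. The family was taken by gene symbol: a probe set belonged to it when the array annotation gave it 1 gene named pgp, mrp, haf, abt, abcf, abch, abtm, wht or pmp with a number, or the gene ced-7, cft-1 or hmt-1. The genes mrp-5 and haf-1 were left out by the same rule. It found 54 genes and 66 probe sets, of 17118 genes and 22548 probe sets on the array.

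ABC proteins bind and hydrolyse ATP through a conserved cassette, and most use that energy to move a substrate across a membrane. P-glycoproteins (pgp) and multidrug resistance proteins (mrp) export drugs, toxins, metals and glutathione conjugates, in the worm largely at the gut and the excretory cell, while half-transporters pair up to serve organelles such as the mitochondrion, the peroxisome and the gut granule. SKN-1 is the worm's Nrf transcription factor, which acts in the gut on genes of glutathione synthesis and conjugation, the step before export by mrp pumps.

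Whole hermaphrodites were 3 days old and were described as sterile, after growth at 25°C from the first larval stage. The control group (n = 4 arrays) was left without stress. The oxygen group (n = 4) was held for 6 hours in a hyperbaric chamber with 99% oxygen, at 40 PSI and 20°C, and the skn-1 RNAi group (n = 3) carried skn-1 RNAi and received the oxidative stress as well. The sample labels name the strain TJ1090 and the design text names TJ1060, with no alleles given. The high pressure, the handling of the chamber and its 20°C, against growth at 25°C, went with the oxygen. Their effects cannot be told apart from it, and no exposure temperature is given for the controls. No group with skn-1 RNAi and no oxygen, and none on control RNAi food, was analysed here, so an effect of RNAi treatment as such cannot be told apart from an effect of skn-1. No label states that the arrays of a group stand for separate cultures. The p-values therefore cover the spread among these arrays, part of which may be technical.

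Each value is a signal, the linear brightness of 1 probe set on 1 array in the units of the MAS5 algorithm. The arrays fell into 2 sets, found in the values and named in no label. In set 1 (controls 1 and 2, oxygen arrays 1 and 2) the added bacterial spike-in transcripts had a median signal of 96.7 to 166.9, and in set 2 (the other 7 arrays, all skn-1 RNAi arrays among them) it was 2.6 to 15.4. Array medians ran from 27.4 to 79.1 and totals from 6863652 to 9138002, and 3 or 4 arrays a group limit how precisely a change can be measured. The mean signal, trimmed at both ends, was 250.1 on every set 2 array and 206.8 to 216.3 in set 1. The sets thus also differ in overall level, whose part in the counts by set was not tested. Control 4 had the lowest mean correlation with its own group, at 0.823. Differences between the sets were wide: with group in the fit, 30 of the 56 tested family probe sets were higher in set 2 (53.6%, against 36.8% of all probe sets tested), and 1, for pmp-1, was lower (1.79%, against 7.53%). For the family's probe sets, and as counts for the other gene lists, results are also given with set as a block where that changes a call. The values of a group are listed in array order, so that the first pair of control and oxygen values belongs to set 1.

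The RNAi target was checked first. Its probe set 194169_s_at read 447.3, 442.2, 796.7 and 454.3 in control, 487.8, 416.8, 681.2 and 455.0 in oxygen, and 235.2, 371.1 and 434.8 in skn-1 RNAi. The log2 difference of skn-1 RNAi against oxygen was -0.58 ± 0.31 (standard error, SE) for this probe set, with an adjusted p of 0.547 in limma, the linear model used throughout with Benjamini-Hochberg adjustment over all probe sets tested. The probe sets 174799_at and 188421_at gave -0.35 ± 0.45 (adjusted p = 0.769) and 0.65 ± 0.81 (adjusted p = 0.759). Against control and with set as a block, 174799_at was lower by its test, at -1.01 ± 0.22 (adjusted p = 0.0341), while 194169_s_at, at -0.81 ± 0.30 (adjusted p = 0.171), and 188421_at, at -0.40 ± 0.27 (adjusted p = 0.425), were not called. A lower skn-1 transcript was thus shown for 1 of 3 probe sets in that fit and for none against the oxygen group, and the group is called skn-1 RNAi by its label. The gene gst-4, a glutathione S-transferase whose reporter the study used as an indicator of exposure, rose by 3.92 ± 0.47 on the log2 scale under oxygen (adjusted p = 0.00149).

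For a test, a probe set had to lie at or above an array's own 40th percentile on 3 or more of the 11 arrays. Of the 66 family probe sets, 56 passed, from 44 genes, and 33 of those were at or above the percentile on every array. The 10 that did not pass belonged to abt-1, abt-3, abt-5, abt-6, pgp-13, haf-8, cft-1, wht-5, wht-9 and abch-1, with signals between 0.4 and 105.7 (median 10.4). They include cft-1, the worm relative of the CFTR channel, and abch-1, of a subfamily known from insects and absent from mammals. Passing through the brighter groups alone was possible. The probe set 175255_s_at of wht-1 passed only through 3 oxygen arrays. Those of pgp-5 and wht-4, and 189342_at of the 2 for mrp-6, passed only through exposed arrays. Those of haf-7, mrp-2 and pgp-10 reached the percentile on 1, 2 and 2 controls, so they, among others, needed exposed arrays to pass. Counts over the 56 therefore describe the tested probe sets and not the whole family. The genes pgp-6 and pgp-7 share a probe set and have none of their own, and pmp-4 has none either.

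**Figure D1:**
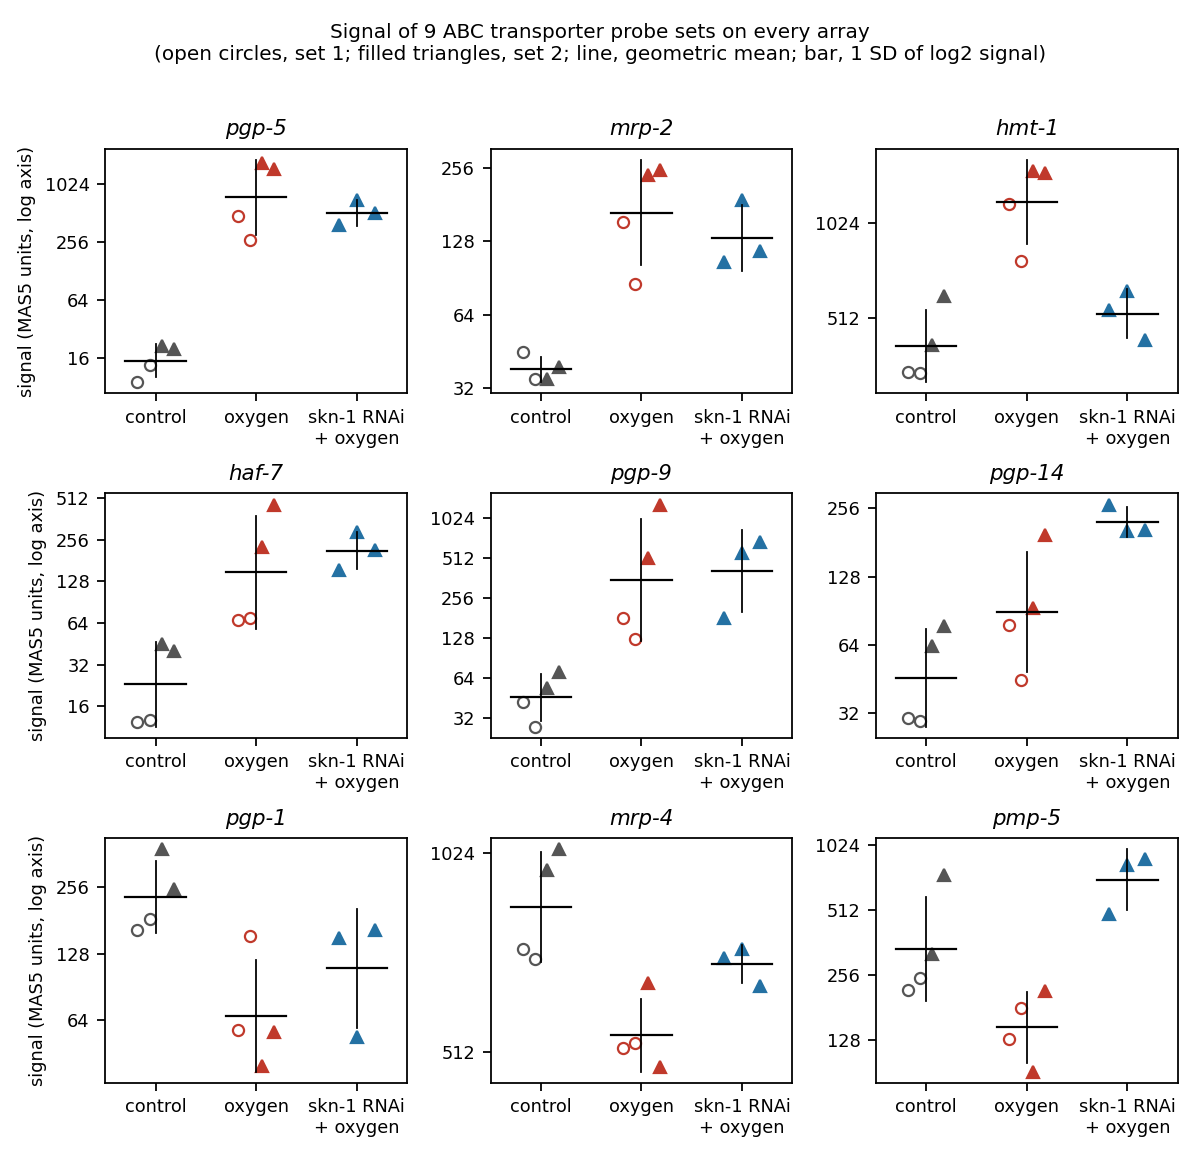
Signal of 9 family probe sets on each of the 11 arrays (log axis, MAS5 units), by group, with open circles for set 1, filled triangles for set 2, a line at the geometric mean and a bar of 1 SD of the log2 signal. The 4 oxygen values of pgp-5, 267.4 to 1685.5, and of mrp-2, 85.9 to 252.9, all lie above the control values, while hmt-1 in skn-1 RNAi, 436.3 to 622.5, lies below every oxygen value.

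Under oxygen, 3 of the 56 tested family probe sets rose and 0 fell. The 3 were a P-glycoprotein (pgp-5), a multidrug resistance protein (mrp-2) and the phytochelatin transporter hmt-1. Of these, pgp-5 and hmt-1 both belong to the ABCB class, as a full-length pump and a half-transporter, and mrp-2 belongs to ABCC. The 3 make 5.36% of the tested family, against 3.29% of all probe sets called higher, and 0 lower compares with 0.539% of all. The probe set of pgp-5 passed the filter only through exposed arrays, and that of mrp-2 needed them to pass. Their calls and this share thus follow in part from how they were kept. At an unadjusted p under 0.05, 18 of the 56 differed in either direction (all probe sets, 14.5%). The median log2 change of the tested family was 0.31, against 0.06 over all probe sets tested. Quantile normalization moved these medians to 0.08 and -0.08, and centring every array on its median moved them to 0.04 and -0.21. Centring also moved the split of calls over all probe sets from 507 higher and 83 lower to 418 and 162, and that of the family to 5 and 1.

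The 56 probe sets were also fitted with set as a block. Then 12 probe sets of 11 genes were higher under oxygen (21.4%, against 7.39% of all), and 1, for mrp-4, was lower (1.79%, against 1.87%). The genes higher were pgp-5, pgp-9, pgp-10, pgp-11, pgp-12, haf-2, haf-7, hmt-1, mrp-1, mrp-2 and wht-1. One of the 12 is the wht-1 probe set that passed the filter only through oxygen arrays, so its difference follows in part from how it was kept, and 11 are left without it. The pgp-5 probe set, which passed only through exposed arrays, is still counted there. So are those of haf-7, mrp-2 and pgp-10, which needed exposed arrays to pass. The share called higher thus follows in part from the filter. Replicate numbers were taken to pair control and oxygen arrays by the correlation check described with the processing. Other-numbered arrays of the same set correlated nearly as much, so the pairing is uncertain. With the replicate number as a block 5 were called, pgp-5, mrp-2, hmt-1, pgp-9 and haf-7 (all, 565 higher). Leaving out control 4 or oxygen 2 also gave 5 higher (all, 522 and 506), the second with pgp-1 lower (all, 73). Leaving out control 1, control 2, oxygen 3 or oxygen 4 gave 2 (all, 284 to 324), since hmt-1 then lost its call.

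Among the P-glycoproteins, full-length pumps that extrude hydrophobic compounds, pgp-5 stood out. This gene, known for roles in resistance to heavy metals and bacterial infection, read 9.1, 13.6, 21.3 and 20.1 in control, 473.1, 267.4, 1685.5 and 1464.0 in oxygen, and 381.5, 702.6 and 508.2 in skn-1 RNAi. All 4 controls lay below their array's 40th percentile and all 7 exposed arrays lay above every control. The log2 change under oxygen was 5.62 ± 0.58 (adjusted p = 0.000712), and since the control level is only a bound, the rise was at least 29.6-fold, the oxygen mean over the control percentile. It was 5.00 within set 1 and 6.25 within set 2, and it was called in all 11 fits that left out 1 array. Its adjacent gene on the X chromosome, pgp-8, changed by 0.98 ± 0.63 on the log2 scale (adjusted p = 0.589), which was no call. The pgp-5 probe set carries the suffix _s_at, which the manufacturer gives to probe sets shared by related transcripts, and which 24 of the 66 carry.

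The gene pgp-9, a P-glycoprotein studied in nematodes for its part in ivermectin response, had the next highest log2 change of the subfamily. It read 42, 27.5, 53.4 and 70.6 in control, 180.4, 126.6, 513.7 and 1287.7 in oxygen, and 182.0, 557.0 and 671.7 in skn-1 RNAi. Control and exposed arrays did not overlap, and the oxygen values were higher in set 2 than in set 1. The log2 change of 2.94 ± 0.72 had an adjusted p of 0.0514, just past the threshold, and 0.00772 with set as a block.

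The genes pgp-10, pgp-11 and pgp-12 were called with set as a block and not with group alone. The gene pgp-10 read 9.4, 10.1, 37.2 and 65.0 in control, 51.9, 68.2, 62.9 and 98.9 in oxygen and 73.0, 49.2 and 35.0 in skn-1 RNAi, a log2 change under oxygen of 1.65 ± 0.60 (adjusted p = 0.208, with the block 0.0407, and 0.049 without control 4). Its change was 2.61 in set 1 and 0.68 in set 2. Controls 1 and 2, both of set 1, lay below their array's 40th percentile (15.1 and 16.2), so the size of the change in that set is uncertain. The gene pgp-11 read 35.0, 23.6, 39.9 and 50.4 in control, 52.3, 73.8, 74.4 and 61.7 in oxygen and 36.5, 44.1 and 36.3 in skn-1 RNAi, so that oxygen arrays alone stood high. Its change of 0.85 ± 0.26 had an adjusted p of 0.115, and 0.0352 with the block. The gene pgp-12, expressed in the excretory cell, read 29.1, 26.4, 94.7 and 76.9 in control, 54.9, 77.6, 173.2 and 266.3 in oxygen and 159.7, 241.3 and 150 in skn-1 RNAi. Its controls and oxygen arrays overlapped across sets but not within either, with a change of 1.28 ± 0.57 (adjusted p = 0.339, with the block 0.00762).

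The lowest log2 change among the P-glycoproteins was that of pgp-1. This gene, an intestinal pump whose loss sensitises worms to heavy metals, read 163.3, 183.2, 380.4 and 251.8 in control and 57.3, 153.4, 39.7 and 56.6 in oxygen, with 150.1, 53.5 and 163.4 in skn-1 RNAi. No oxygen array reached a control, but oxygen 2 lay close to control 1. The log2 change was -1.79 ± 0.50, short of the threshold (adjusted p = 0.0871) except when oxygen 2 was left out, at 0.0293. Of the other members, pgp-3, known for resistance to plant and drug toxins, had 1.69 ± 0.64 (adjusted p = 0.233), and control 4, at 11.2 against 66.8 to 153.2 in the other controls, was low. The genes pgp-2, which acts in gut granules and fat storage, pgp-4 and pgp-15 lay between -0.37 and 0.80 without a call. The subfamily's 13 tested probe sets had a median log2 change of 0.97, and 0.62 after quantile normalization, with 11 above 0 and 2 below.

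Half-transporters of the same ABCB class include the metal route. The gene hmt-1 protects worms from cadmium together with phytochelatins. It read 346.3, 343.7, 421.5 and 600.2 in control, 1175.5, 776.1, 1497.3 and 1475.3 in oxygen, and 543.2, 622.5 and 436.3 in skn-1 RNAi. Every oxygen array stood above both of the other groups, which overlapped each other. The rise under oxygen was 1.52 ± 0.28 on the log2 scale, 2.86-fold (adjusted p = 0.0149), with 1.47 in set 1 and 1.56 in set 2. In fits that left out 1 array its adjusted p ran from 0.00822 to 0.0538.

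The half-transporter haf-7 read 12.3, 12.8, 45.1 and 40.5 in control, 67.3, 69.6, 228.8 and 460.1 in oxygen, and 155.5, 290.9 and 217.0 in skn-1 RNAi. Within each set the oxygen arrays stood several-fold above the controls. Controls 1, 2 and 4 lay below their array's 40th percentile, so the control level is near background and the size of the change is uncertain. The log2 change was 2.69 ± 0.68 (adjusted p = 0.0625), and with the set block the SE fell to 0.26 and the adjusted p to 0.000473. The gene haf-2, needed for efficient RNAi, read 523.9, 576.1, 759.4 and 627.9 in control, 819.6, 650.1, 1624.4 and 1460.9 in oxygen, and 758.7, 1050.2 and 974.8 in skn-1 RNAi. Oxygen 2 was the only oxygen array within the control range, and the change of 0.78 ± 0.31 was called with the block and not without it (adjusted p = 0.0436 and 0.26).

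The remaining half-transporters did not pass the test. The gut granule partners haf-4 and haf-9 lay at -0.14 to 0.07 over 3 probe sets and at -0.45. The mitochondrial iron-sulfur exporter abtm-1 lay at -0.03, haf-3 at 0.24, and haf-6, another gene needed for RNAi, at -0.49 with no overlap between groups. The subfamily's median was 0.02 over 10 probe sets and -0.27 after quantile normalization.

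**Figure D2:**
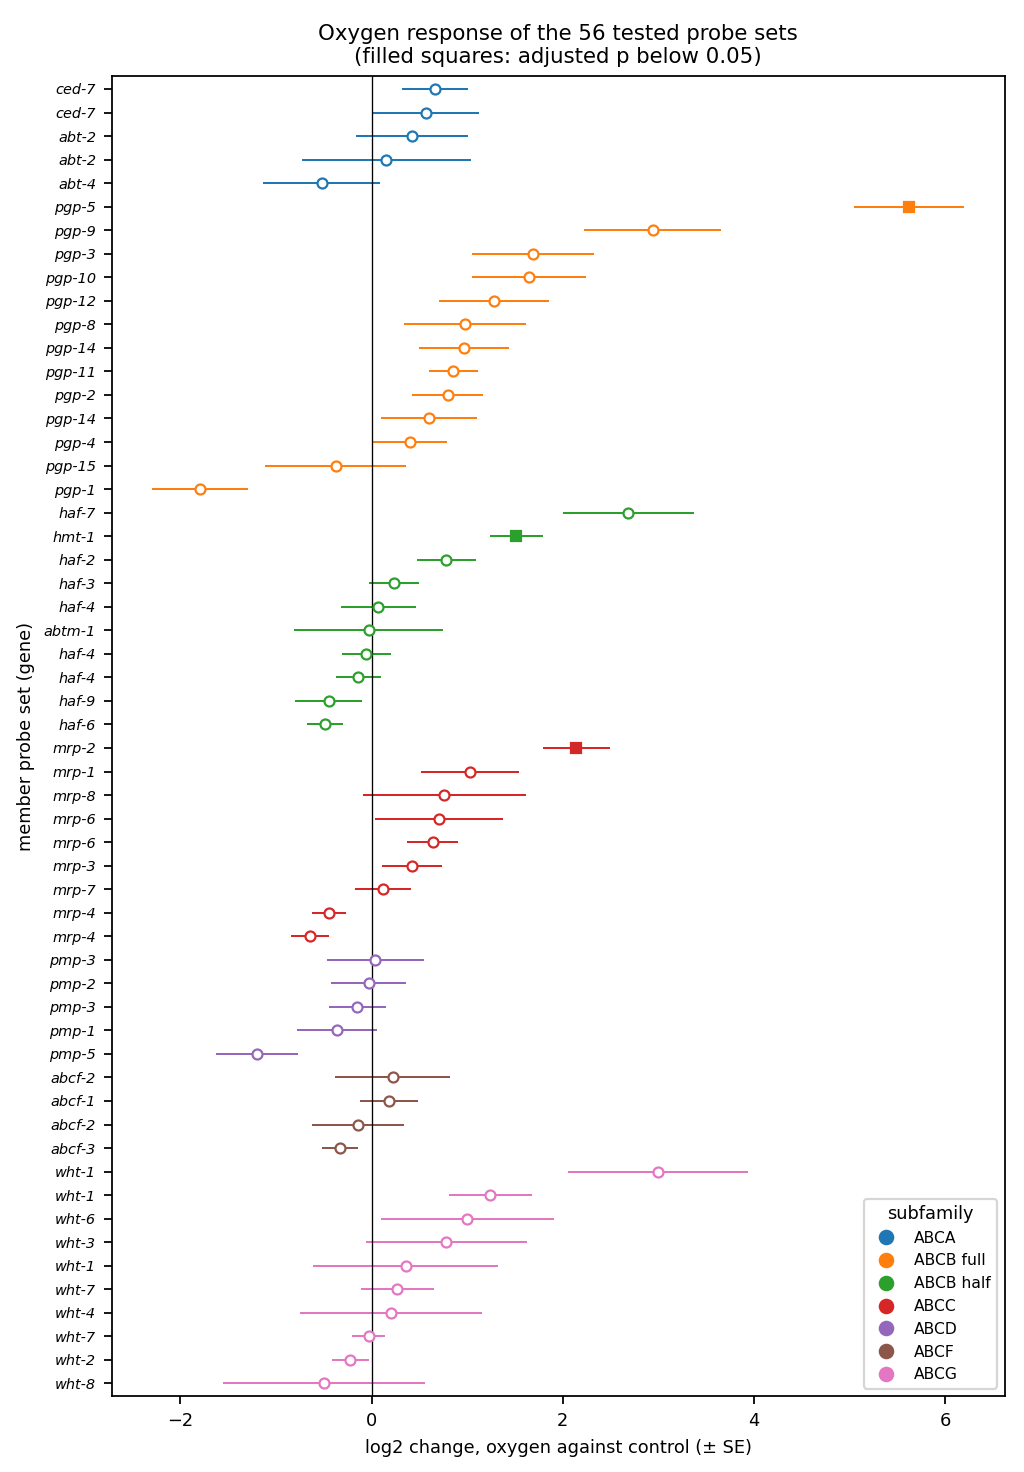
Log2 change of each of the 56 tested probe sets under oxygen against control (x axis), with bars of 1 SE, grouped by subfamily on the y axis and labelled by gene. The filled squares of pgp-5 (5.62), mrp-2 (2.14) and hmt-1 (1.52) passed the test, and the ABCD and ABCF rows lie at or below 0.22.

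Multidrug resistance proteins (ABCC) export organic anions, glutathione conjugates among them. The gene mrp-2 read 44.8, 34.9, 34.6 and 38.9 in control, 153.6, 85.9, 240.0 and 252.9 in oxygen, and 105.1, 189.0 and 116.4 in skn-1 RNAi. The controls were tightly grouped and every exposed array lay above them. Controls 3 and 4, both of set 2, lay below their array's 40th percentile, so the size of the change in that set is uncertain. The rise under oxygen was 2.14 ± 0.35 on the log2 scale, 4.42-fold (adjusted p = 0.00824), called in all 11 fits that left out 1 array, with 1.54 in set 1 and 2.75 in set 2.

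The gene mrp-1, which neighbours mrp-2 on the X chromosome and contributes to tolerance of cadmium and arsenite, read 104.1, 109.7, 350.7 and 299.9 in control, 298.3, 209.2, 637.5 and 528.1 in oxygen, and 420.8, 891.0 and 732.5 in skn-1 RNAi. Its oxygen arrays exceeded the controls within each set and overlapped them across sets, with a change of 1.03 ± 0.51 (adjusted p = 0.416, with the block 0.0327). Opposite in sign was mrp-4, which acts in the differentiation of gut granules. Its probe set 193046_at read 734.1, 708.3, 964.1 and 1037.8 in control, 518.8, 529.3, 651.4 and 486.5 in oxygen, and 711.2, 733.9 and 645.5 in skn-1 RNAi. Its probe set 175043_s_at read 1045.5, 1065.9, 1264.3 and 1139.1, then 711.6, 982.2, 809.6 and 832.5, then 751.7, 810.9 and 742.6 in the same order. Both separated control from oxygen arrays, at -0.64 ± 0.20 (adjusted p = 0.131, with the block 0.0318) and -0.44 ± 0.18 (adjusted p = 0.265, with the block 0.107). Beyond these, mrp-3, mrp-6, mrp-7 and mrp-8 had log2 changes of 0.12 to 0.76 and no call. The ABCC median was 0.64, and 0.28 after quantile normalization.

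No peroxisomal (ABCD) or ABCF probe set was called under oxygen, with or without the set block. Among the ABCD half-transporters, which bring fatty acids into the peroxisome, pmp-5 read 219.1, 247.4, 322.1 and 743.5 in control, 129.8, 180.9, 92.0 and 217.4 in oxygen, and 489.3, 825.5 and 878.5 in skn-1 RNAi. Its oxygen arrays were the lowest of the 11, with a log2 change of -1.20 ± 0.43 (adjusted p = 0.198). The neighbours pmp-1 and pmp-2 had -0.36 and -0.03, and both probe sets of pmp-3 lay within 0.15 of 0.

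The ABCF proteins lack a membrane domain and act in translation. The gene abcf-1 read 434.1, 416.6, 810.6 and 403.8 in control, 522.9, 395.8, 904.2 and 528.1 in oxygen, and 893.4, 930.5 and 913.7 in skn-1 RNAi. For abcf-2 the probe set 191496_s_at read 228.0, 277.9, 988.7 and 1124.9, then 532.7, 257.7, 1000.1 and 945.9, then 1242.7, 1055.7 and 1077.9. Both genes had overlapping control and oxygen arrays, with changes of 0.18 ± 0.31 (adjusted p = 0.912) and 0.22 ± 0.60 (adjusted p = 0.951), and abcf-2 differed more by set than by oxygen, by 1.73 ± 0.25. The gene abcf-3, which works with GCN-1, had -0.33 ± 0.19 (adjusted p = 0.501) with no overlap between the groups.

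Of the ABCA members, ced-7, which acts in the engulfment of dying cells, had 0.56 and 0.67 over its probe sets, abt-2 had 0.16 and 0.42, and abt-4 had -0.52, none called. The ABCG half-transporters resemble the fly White protein. The gene wht-1, needed for RNAi, has 3 probe sets. The one called 175255_s_at read 0.8, 5.8, 19.7 and 19.6 in control, 34.9, 24.3, 107.8 and 79.4 in oxygen, and 26.3, 17.4 and 23.4 in skn-1 RNAi. Controls were all below their array's 40th percentile and so were the skn-1 RNAi arrays, so that oxygen arrays were at least 2.06-fold above control (log2 change 3.00 ± 0.94, adjusted p = 0.133, with the block 0.0109). Since it was tested only because 3 oxygen arrays were high, these values describe the arrays and support nothing further.

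The probe set 175254_at of wht-1 read 19.2, 18.3, 32.5 and 69.9 in control, 52.0, 56.5, 81.1 and 105.3 in oxygen, and 51.7, 41.4 and 31.5 in skn-1 RNAi. Only control 4 lay among the oxygen values, and the change was 1.24 ± 0.43 (adjusted p = 0.187, with the block 0.0213, and 0.0273 without control 4). The third probe set of the gene, 187614_at, read 20.2, 26.4, 74.9 and 172.1, then 60.7, 9.2, 156.7 and 211.5, then 115.6, 118.6 and 100. It showed no separation, at 0.36 ± 0.97 (adjusted p = 0.951), so the probe sets of wht-1 differ in size of change.

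For wht-7 the probe set 184736_at read 57.4, 59.1, 82.6 and 152.2 in control, 114.6, 62.5, 79.7 and 158.3 in oxygen, and 157.2, 240.8 and 187.8 in skn-1 RNAi. The probe set 189530_s_at of the same gene read 582.9, 544.5, 611.2 and 663.2, then 641.8, 553.2, 533.4 and 622.3, then 440.9, 491.2 and 530.9. Under oxygen neither moved beyond the spread, at 0.27 ± 0.38 and -0.03 ± 0.17. The genes wht-2, wht-3, wht-4, wht-6 and wht-8 had changes of -0.50 to 1.00 without a call. Of the 10 genes with more than 1 tested probe set, 6 had the same sign in all of theirs under oxygen.

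Control and oxygen arrays did not overlap for 7 probe sets that were higher (12.5%, against 6.60% of all probe sets tested) and 6 that were lower (10.7%, against 3.76%). The higher were pgp-5, pgp-9, pgp-11, haf-7, hmt-1, mrp-2 and wht-1, and the lower were pgp-1, both probe sets of mrp-4, haf-6, pmp-5 and abcf-3. The wht-1 probe set here is 175255_s_at, which passed the filter only through oxygen arrays. That of pgp-5 passed only through exposed arrays, and those of haf-7 and mrp-2 needed them to pass. The separation of these probe sets thus follows in part from how they were kept, and so does the share called higher. Whether the oxygen change differed between the sets was tested as an interaction. It was called for 0 of the 15389 probe sets, with 6 of the 56 family probe sets at an unadjusted p under 0.05 (all, 4.26%). For pgp-5 the change was larger in set 2 by 1.25 ± 0.51 on the log2 scale and for mrp-2 by 1.21 ± 0.48, each with an adjusted p of 0.994.

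**Figure D3:**
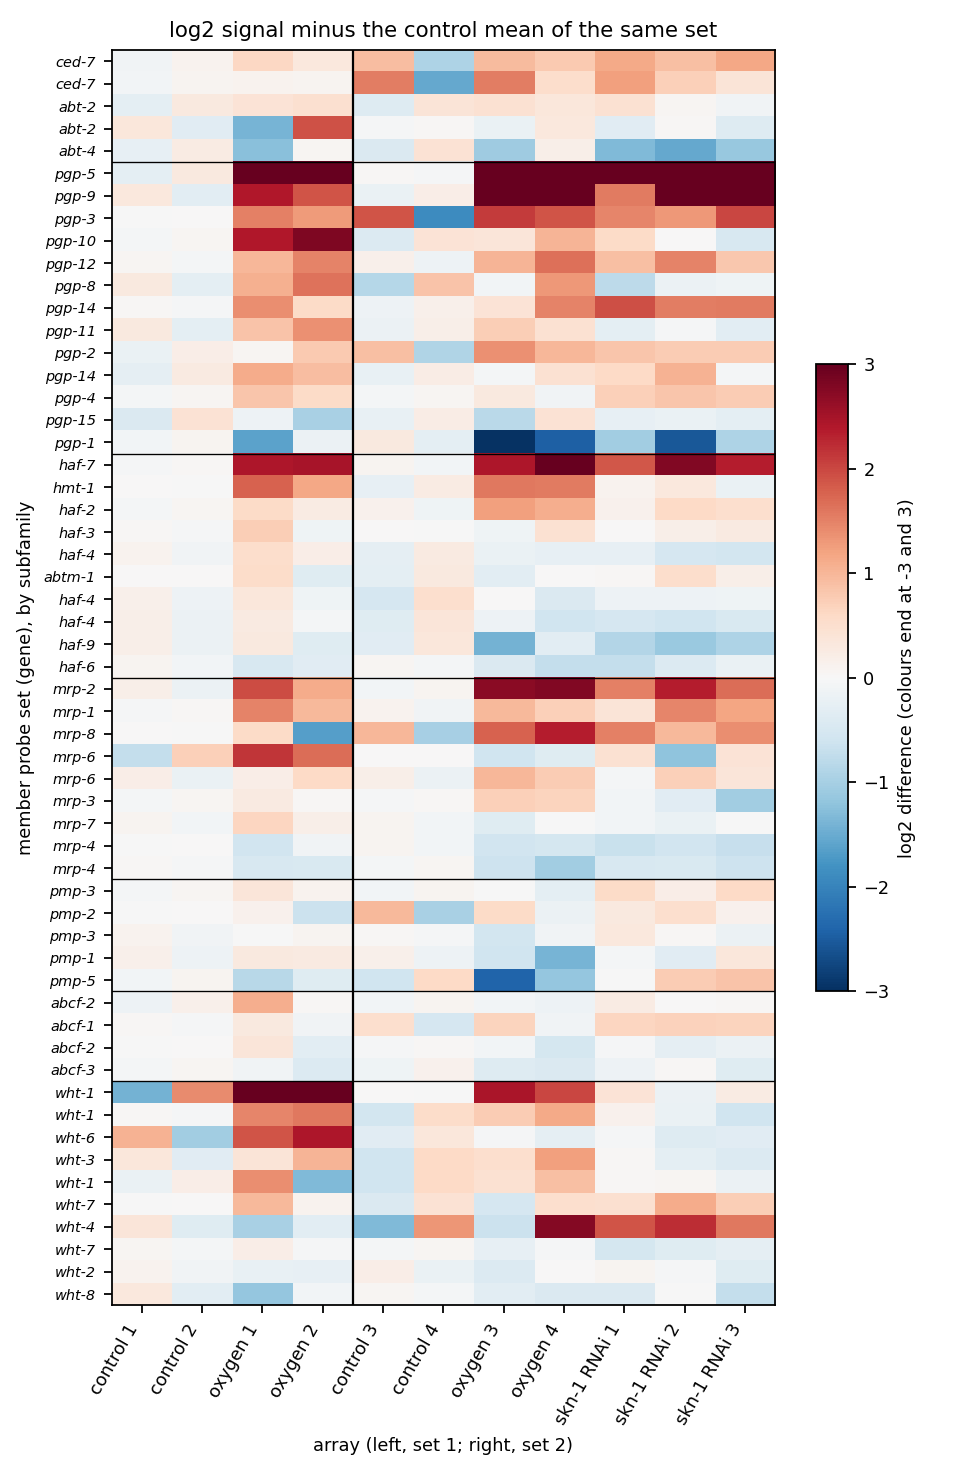
Log2 signal of the 56 tested probe sets (rows, by subfamily) on the 11 arrays (columns, set 1 left and set 2 right of the line) minus the control mean of the same set, with colours ending at -3 and 3. The rows of pgp-5, pgp-9 and haf-7 are above 0 on all 7 exposed arrays, and hmt-1 is high on the 4 oxygen arrays and near 0 on the 3 skn-1 RNAi arrays.

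Setting skn-1 RNAi with oxygen beside oxygen alone asks which levels under oxygen depend on skn-1. It called 0 of the 56 family probe sets in limma in either direction, against 0.0455% higher and 0.182% lower over all probe sets tested, and 7 of the 56 had an unadjusted p under 0.05 (all, 9.77%). The oxygen arrays came from both sets and the skn-1 RNAi arrays from set 2 alone. With set as a block 0 were higher (all, 0.182%) and 1, hmt-1, was lower (1.79%, against 0.572% of all). The median log2 change of the tested family was 0.27 (all, 0.22), and it turned to -0.13 with the set block (all, 0.02) and -0.10 within set 2 (all, 0.01). Quantile normalization gave 0.14 and centring 0.08.

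For hmt-1 the 3 skn-1 RNAi arrays, at 436.3 to 622.5, lay below the lowest oxygen array, at 776.1. The log2 difference was -1.17 ± 0.30 (adjusted p = 0.257) with group alone, -1.47 ± 0.23 (adjusted p = 0.0261) with the set block, and -1.49 (adjusted p = 0.149) within set 2. Against control the same arrays differed by 0.34 ± 0.30 (adjusted p = 0.528), with overlapping values. The call thus rests on the fit with set as a block.

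The gene pmp-5 had the smallest p of the family and the opposite sign, at 2.27 ± 0.46 (adjusted p = 0.108), with every skn-1 RNAi array, from 489.3, above every oxygen array, up to 217.4. It passed when control 4, at 743.5 the highest control, was left out (adjusted p = 0.0371). The count of family probe sets called higher was then 1 (all, 14). Against control its difference was 1.07 ± 0.46 (adjusted p = 0.222).

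The other genes with the smallest p were pgp-11 at -0.74 ± 0.28 (adjusted p = 0.455), pgp-14 at 1.32 ± 0.50 (0.463), pgp-4 at 1.06 ± 0.42 (0.469) and wht-7 at 0.98 ± 0.41 for 184736_at and -0.27 ± 0.19 for 189530_s_at. The signs of the pair of wht-7 probe sets differ, and neither passed. Of the genes that rose under oxygen, pgp-5 differed by -0.54 ± 0.62 (adjusted p = 0.739) and mrp-2 by -0.35 ± 0.38 (adjusted p = 0.723) between skn-1 RNAi and oxygen. With the set block these were -1.30 ± 0.39 (adjusted p = 0.196) and -0.60 ± 0.37 (adjusted p = 0.503), so a difference between the groups was not shown for either gene. Missing the threshold does not show that the levels were alike.

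Oxygen and skn-1 RNAi arrays did not overlap for 7 family probe sets that were higher in skn-1 RNAi (12.5%, against 12% of all) and 4 that were lower (7.14%, against 5.21%). The higher were abcf-2, abcf-3, abtm-1, pgp-4, pgp-14, pmp-3 and pmp-5, and the lower were hmt-1, pgp-11, wht-1 and wht-7. The shares are near those of all probe sets.

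**Figure D4:**
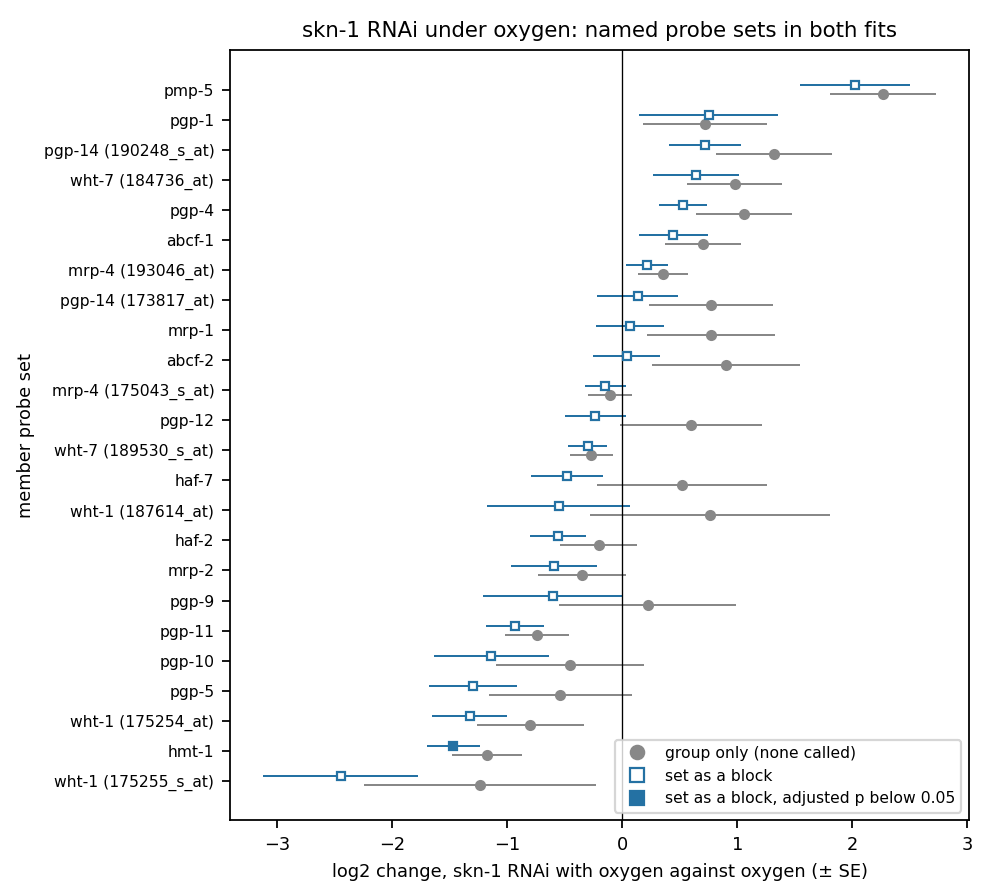
Log2 difference between skn-1 RNAi with oxygen and oxygen alone (x axis, bars of 1 SE) for the 24 named probe sets, with group alone (grey circles) and with set as a block (blue squares). With group alone no bar belongs to a call, and the filled square of hmt-1 at -1.47 is the only call with the block.

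The difference between skn-1 RNAi with oxygen and control shares the control arrays with the first comparison and the skn-1 RNAi arrays with the second. It called 4 family probe sets higher (7.14%, against 2.49% of all) and 0 lower (all, 0.851%), and 17 of the 56 had an unadjusted p under 0.05 (all, 20.8%). The 4 were pgp-5, mrp-2, haf-7 and pgp-14. Of these, pgp-5 passed the filter only through exposed arrays, and mrp-2 and haf-7 needed them to pass. Their calls and the share called higher thus follow in part from how they were kept. The skn-1 RNAi arrays are all from set 2, so values from that set are given beside those over all controls. For pgp-5 the log2 difference was 5.08 ± 0.62 (adjusted p = 0.0027) with group alone, 4.32 ± 0.39 (adjusted p = 0.00108) with the set block and 4.64 within set 2, and it was called in all 11 fits that left out 1 array. Against the percentile of the set 2 controls, a comparison added after the data were seen, pgp-5 was at least 12.6-fold higher in skn-1 RNAi. For haf-7 the difference was 3.21 ± 0.74 (adjusted p = 0.0461) with group alone, 2.21 ± 0.32 (adjusted p = 0.00686) with the set block and 2.33 within set 2. For mrp-2 the difference was 1.80 ± 0.38 (adjusted p = 0.0338) with group alone. By the same added comparison with the percentile of the set 2 controls, mrp-2 was at least 3.24-fold higher in skn-1 RNAi. Some controls of haf-7 and of mrp-2 lay below their array's 40th percentile.

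The gene pgp-14, which builds a lipid barrier in the pharyngeal cuticle, has 2 probe sets. Its probe set 190248_s_at read 30.4, 29.3, 63.0 and 77.7 in control, 78.5, 44.6, 92.8 and 195.4 in oxygen, and 266.3, 202.7 and 206.2 in skn-1 RNAi. The skn-1 RNAi arrays were the highest of the 11, at 2.29 ± 0.50 over control (adjusted p = 0.039) and 1.69 ± 0.32 with the set block (adjusted p = 0.0206), while oxygen alone gave 0.97 ± 0.47 (adjusted p = 0.398). The probe set 173817_at read 23.7, 34.3, 78.4 and 107.2, then 61.3, 53.9, 87.8 and 124.9, then 138.7, 189.9 and 88.2. Its lowest skn-1 RNAi array fell within the control range, and its difference of 1.37 ± 0.54 was no call (adjusted p = 0.189).

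With set as a block the genes called were pgp-5, haf-7, pgp-14 and pgp-4, again 4 probe sets (7.14%, against 2.97% of all) with 0 lower (all, 1.57%). The gene pgp-4, a P-glycoprotein next to pgp-3, read 54.4, 58.4, 139.4 and 150.8 in control, 99.8, 84.3, 178.9 and 133.9 in oxygen, and 237.5, 259.5 and 247.8 in skn-1 RNAi. Its skn-1 RNAi arrays lay close together and above all others, at 1.46 ± 0.42 over control (adjusted p = 0.0934, with the block 0.0425). With the block mrp-2 missed the threshold, at 1.55 ± 0.37 (adjusted p = 0.0504). The gene pgp-9 missed it in both fits, at 3.16 ± 0.77 with group alone (adjusted p = 0.0557) and 2.34 ± 0.61 with the block (adjusted p = 0.0622).

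The count of 4 depended on single arrays. It was 1, pgp-5 alone, without control 1, without control 2 or without any 1 of the skn-1 RNAi arrays (all, 87 to 196). It was 2 without oxygen 1 or oxygen 3 (all, 286 and 330). Control and skn-1 RNAi arrays did not overlap for 12 probe sets that were higher (21.4%, against 16.9% of all), those of pgp-4, pgp-5, pgp-9, pgp-12, pgp-14, haf-7, mrp-1, mrp-2, pmp-3, abcf-1, wht-4 and wht-7, and 3 that were lower, haf-9, mrp-4 and wht-7 (5.36%, against 6.69%). Among the 12, pgp-5 and wht-4 passed the filter only through exposed arrays, and haf-7 and mrp-2 needed them to pass. Their separation thus follows in part from how they were kept. The family median was 0.80 (all, 0.36), and 0.21 with the set block (all, 0.09). It was 0.38 after quantile normalization (all, 0.02) and 0.34 after centring (all, -0.10), and calls over all probe sets then went from 383 higher and 131 lower to 208 and 220, and to 218 and 322.

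Several family genes lie next to each other, by gene order in the reference annotation. On the X chromosome pgp-12, pgp-13 and pgp-14 are adjacent, as are pgp-5, pgp-8, pgp-7 and pgp-6, the pair pgp-3 and pgp-4, and the pair mrp-2 and mrp-1, and on chromosome II so are pmp-1 and pmp-2. The X chromosome holds 14 of the 54 genes. Within such runs the values differed: with group alone pgp-5 and mrp-2 passed the test under oxygen, and pgp-8, pgp-3, pgp-4, pgp-12, pgp-14 and mrp-1 did not. With set as a block pgp-12 and mrp-1 passed as well. The differences between neighbours were not tested.

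Genes of the routes that these transporters serve were counted from lists chosen with earlier results of these data known. Of 13 tested genes of glutathione supply and conjugation, 5 rose under oxygen and 0 fell with group alone (all probe sets, 3.29% and 0.539%). They included gcs-1, the first enzyme of glutathione synthesis, at 1.67 ± 0.25 (adjusted p = 0.00487), gst-10 at 1.64 ± 0.28 (adjusted p = 0.00965), gst-5 at 2.92 ± 0.66 (adjusted p = 0.0377), gst-6 at 2.54 ± 0.58 (adjusted p = 0.0397), and gst-4. With set as a block 7 were higher, gst-1 and gstk-1 added, and gst-36 was lower (all, 7.39% and 1.87%). Of 7 tested genes of the phytochelatin and cadmium response, the route of hmt-1, 3 rose and 0 fell in either fit: cdr-4, a cadmium-responsive gene, at 3.92 ± 0.32 (adjusted p = 0.000174), cdr-2 at 4.07 ± 0.95 (adjusted p = 0.042) and the metallothionein mtl-1 at 4.10 ± 0.49 (adjusted p = 0.00149). The median log2 changes of these lists were 0.78 and 0.53, beside 0.06 over all probe sets. In gut granule biogenesis 1 of 13 rose with group alone, glo-3 at 1.30 ± 0.22 (adjusted p = 0.00867), and 3 with set as a block, glo-4 and cdf-2 added.

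With group alone 0 genes were called under oxygen among 10 peroxins, 10 genes of cell corpse engulfment, 8 of the mitochondrial unfolded protein response, 6 partners of the ABCF proteins and 12 regulators of xenobiotic induction. With set as a block the peroxin prx-2 was higher (adjusted p = 0.0145), as were atfs-1 (0.0308) and dve-1 (0.0248) of the unfolded protein response, the eIF2 kinase pek-1 (0.041) and the regulator hlh-30 (0.0141), and 0 engulfment genes were called. In skn-1 RNAi against oxygen 0 genes of these 8 lists were called with group alone, and 1, gst-10, was lower with set as a block. In skn-1 RNAi against control, cdr-4 was higher at 3.26 ± 0.35 (adjusted p = 0.00145) and mtl-1 at 3.25 ± 0.53 (adjusted p = 0.0112), and glo-4 was higher with set as a block alone. The ABC transporters outside the rule gave 1 call: mrp-5, which exports heme from the gut, was higher in skn-1 RNAi than in control at 2.25 ± 0.50 for 189403_s_at (adjusted p = 0.0391) and not for 174713_at (adjusted p = 0.0579), and haf-1, a mitochondrial peptide exporter, was not called in any comparison in either fit.

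Whole worms were used, so fewer cells of a type and less RNA per cell cannot be told apart. Of 15 tested intestine markers, the cysteine protease cpr-1 rose and act-5, nhx-2 and pept-1 fell under oxygen, and nhx-2 was lower in skn-1 RNAi than in control, with group alone. In the fit with set as a block, elt-7, a gut GATA factor, was also higher under oxygen, and vha-6 also lower in skn-1 RNAi than in control. Summed intestine signal over 16 markers was 31800 to 54680 in control, 34290 to 47790 in oxygen and 31730 to 38190 in skn-1 RNAi. For the excretory cell, another site of pgp expression, 0 of 6 markers were called with group alone, and with set as a block exc-5 was higher under oxygen and aqp-8 lower in skn-1 RNAi than in control. The sum over 7 was 725.4 to 1528, 729.1 to 1339 and 748.3 to 1001 in the same order. The germ line marker glh-1 fell under oxygen, 1 of 15 with group alone, and with set as a block pgl-1 and egg-1 did too.

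Sperm markers gave 0 calls among 10 with group alone, and with set as a block spe-11 was higher under oxygen and in skn-1 RNAi than in control. Their sum over 12 was 822.1 to 8035 in control, 1336 to 9643 in oxygen and 7353 to 9912 in skn-1 RNAi. The 4 lowest sums were those of set 1. The body wall muscle sum was 8618 to 14560, 9446 to 15100 and 16020 to 20210, with 0 of 9 called with group alone. The muscle myosin unc-54 was higher under oxygen and in skn-1 RNAi than in control with set as a block. For pharynx, epidermis, neurons, glia and coelomocytes 0 markers were called in the 3 comparisons with group alone, and the neuron markers unc-64 and snb-1 were higher under oxygen with set as a block. The markers ceh-22 (pharynx), hlh-1 (muscle), spe-38 (sperm) and lgc-26 (coelomocyte) were below the 40th percentile on all arrays. The part of these shifts in the family's values was not tested.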

How the data were processed

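Each deposited value is an intensity, a linear signal for 1 probe set on 1 array. The submitters' processing notes name MAS5 and GCOS 1.4 as the tools. Scaling and background settings are not given in the sources used here. Of 22625 probe sets, 77 were manufacturer's controls; 20766 had 1 gene in the array annotation, 887 several and 895 none, and names updated through the reference gene table (assembly WBcel235; 20701 found) changed 0 symbols. Signals were taken to log2, the 1 signal of 0 set to 0.1. The filter (40th percentile on at least 3 arrays) left 15389 probe sets. The model was lmFit with eBayes of limma 3.58.1 under R 4.3.3, over 11 arrays with group as the term, two-sided, Benjamini-Hochberg adjusted, threshold 0.05. The fit was tested on simulated data.

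The family's members, the gene and marker lists and the tests were chosen with earlier results of these data known. Values on every array are given for probe sets called in any comparison with group alone or with set as a block, the 6 genes with the smallest p per comparison, the 5 with the highest mean log2 signal, and further probe sets of the genes of the first kinds; other members by range. Where every array of the dimmer group lay below its 40th percentile, the fold is a bound: the brighter geometric mean over that of the percentile.

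Replicate numbers come from the labels. Same-numbered control and oxygen arrays deviated together from their group means (Pearson r over probe sets 0.449 to 0.565), so the numbers were taken as pairs and a replicate block was fitted; other-numbered arrays of the same set gave 0.346 to 0.533, and with set removed same-numbered pairs gave 0.054 to 0.217. The skn-1 RNAi numbers did not pair. Alternatives were quantile normalization, median centring, no filter, a 60th percentile filter, a floor of 20, set as a block, a replicate block, each set alone, the compared groups alone, and each array left out.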

Additional observations from a re-analysis of the deposited data

Results flagged for a closer look

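In 3 of 112 groups of 4 arrays tested over the family's probe sets, 1 array lay far from the others by Dixon's criterion for 4 values. Each group holds arrays of both sets, which differ in level, so this rate cannot be set against chance. For abt-2 (177358_at) oxygen 1 read 3.8, against 37.8 to 60.5 on the other oxygen arrays. For ced-7 (175793_s_at) oxygen 3 read 556.9, against 277.0 to 301.2. For abcf-1 control 3 read 810.6, against 403.8 to 434.1. None of these probe sets was called in any comparison. The causes were not tested.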

How the results depend on the processing

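Over 27 results for single members and 531 alternatives, 457 kept their direction and side of the threshold, 36 lost the call, 38 gained one and 0 reversed. Counts below are of the 56 family probe sets, with those of all 15389 in brackets, unless stated. Under oxygen the count called higher, 3 (507), was 5 with median centring (418), the floor of 20 (597) or the replicate block (565). It was 5 of 41 with the 60th percentile filter (526 of 10104) and 12 with set as a block (1137). It was 0 within set 1, with 2 arrays against 2 (29), and 2 to 5 with 1 array left out (284 to 522). The count called lower, 0 (83), was 1 with centring (162) or the set block (288), and 0 to 1 with 1 array left out (41 to 73). In skn-1 RNAi with oxygen against oxygen the shared number does not pair the arrays. There a replicate block called 1 higher, pmp-5 (19), and leaving out 1 array gave 0 to 1 (3 to 14). The set block called 1 lower (88), and the median turned from 0.27 to -0.13 with it and to -0.10 within set 2. The cause was not tested. In skn-1 RNAi with oxygen against control the 4 called higher (383) were 1 of 66 without a filter (195 of 22548). They were 12 with a replicate block, an unpaired number (1364), and 1 to 5 with 1 array left out (87 to 494). With centring 1 was lower (322). The median, 0.80, was 0.38 with quantile normalization, 0.34 with centring, 0.21 with the set block and 0.062 within set 2. The number of arrays, the unequal sets and signals near background limit all of these counts.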
